A study of Mus musculus with 109 samples.

Results

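The DLK to JNK to Jun cascade was followed as 10 genes in the mouse retina 2, 14 or 35 days after an intravitreal injection of interleukin 1 alpha (IL1A), tumor necrosis factor (TNF), both cytokines (IL1A+TNF) or phosphate-buffered saline (PBS). The 10 genes were chosen by name as the kinases of the axon injury cascade and the transcription factors below it. Earlier results of these data were known at that choice. Each gene was found by its Ensembl identifier among the 37315 genes of the count table. All 10 passed the filter on low counts. The series held 109 whole retinas from 64 mice, 54 from females and 55 from males, and both eyes had been sequenced in 45 of the mice. Wild-type (WT) mice were C57BL/6J, and the other genotype was Sarm1 deficient (Sarm1-/-), a whole-animal deficiency for a NAD-cleaving enzyme of axon degeneration. The series description gives an age of 2 to 4 months.

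In the first of 2 batches named in the labels, 31 WT retinas were taken 2 days after PBS, 9 after IL1A, 8 after TNF and 10 after IL1A+TNF. The same batch held 7 PBS and 6 TNF retinas of day 14 and 6 PBS and 9 TNF retinas of day 35, all WT. The second batch held day 2 retinas only, 5 WT after PBS, 6 WT after IL1A+TNF, 6 Sarm1-/- after PBS and 6 Sarm1-/- after IL1A+TNF. Most treated eyes had a fellow eye of the same mouse injected with PBS, so the controls were themselves injected eyes and no uninjected retina was analysed here. Total counts per retina were 30014800 to 45779900 in the first batch and 42876000 to 79064500 in the second, and the smallest count of any of the 10 genes in any retina was 204. Levels are given as CPM, counts scaled to a common library size, as mean ± SD over retinas. A change is a log2 fold change with its standard error from limma, with sex as a covariate and the mouse as a block. Among these limma fits only the comparison of PBS eyes between days had no block. The edgeR and DESeq2 fits had none, so they treated both eyes of a mouse as independent. A gene was called at a false discovery rate (FDR) under 0.05, adjusted over all genes tested in that comparison.

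In this pathway a stress signal in the axon or cell body activates the mixed-lineage kinases DLK and LZK, which phosphorylate the MAP kinase kinases MKK4 and MKK7, which in turn phosphorylate the Jun N-terminal kinases (JNKs). JNKs phosphorylate the transcription factor JUN, which binds DNA with partners such as ATF3 and also raises transcription of its own gene, while CHOP is induced in parallel through the PERK branch of the endoplasmic reticulum stress response. In retinal ganglion cells (RGCs) the cascade is known for its part in cell death after injury of the optic nerve. It runs largely by phosphorylation, which RNA levels do not measure.

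The kinase genes were Map3k12 (ENSMUSG00000023050, chr15:102497646-102517064, encoding DLK), Map3k13 (ENSMUSG00000033618, chr16:21794346-21933439, LZK), Map2k4 (ENSMUSG00000033352, chr11:65688243-65788297, MKK4), Map2k7 (ENSMUSG00000002948, chr8:4238740-4247897, MKK7), Mapk8 (ENSMUSG00000021936, chr14:33377898-33447158, JNK1), Mapk9 (ENSMUSG00000020366, chr11:49846751-49886421, JNK2) and Mapk10 (ENSMUSG00000046709, chr5:102907948-103211334, JNK3, the JNK most confined to the nervous system). The transcription factor genes were Jun (ENSMUSG00000052684, chr4:95049034-95052222), Atf3 (ENSMUSG00000026628, chr1:191170296-191218039) and Ddit3 (ENSMUSG00000025408, chr10:127290774-127296288, CHOP). Coordinates are of GRCm38 (mm10). Exons of Map3k12, Map3k13, Jun and Ddit3 overlap exons of a gene on the opposite strand (for Jun its antisense gene Junos and for Ddit3 the gene Mars), and exons of Map3k13 and Map2k7 also overlap 1300002E11Rik and Gm49320 on their own strand. The annotation used here also lists another protein-coding Ddit3 entry on the same strand with overlapping exons. How reads shared by both Ddit3 entries were counted is not given. The strand setting of the counting is not given in the sources used here, so reads of such overlapping genes cannot be told apart.

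Because JUN and its partners act on promoters, those of the 10 genes were searched on both strands, over the 250 bases before each start, for the AP-1 site TGACTCA, the cyclic AMP response element TGACGTCA, the JUN-ATF sites TGACATCA and TTACCTCA, and the C/EBP-ATF site TGATGCAA. The 4 promoters shown are those of the 3 transcription factor genes and of Mapk10, each with its matches in capitals, 5′ to 3′ on the strand of the gene, from RefSeq on GRCm38.p6. They are chr4:95052223-95052472 (250 bases, minus strand), chr1:191183341-191183583 (243 bases, minus strand), chr10:127290543-127290773 (231 bases, plus strand) and chr5:103211335-103211584 (250 bases, minus strand), with bases that lie in an exon of the gene left out. The Atf3 promoter is that of a start site inside the longest annotated Atf3 gene span.
Jun: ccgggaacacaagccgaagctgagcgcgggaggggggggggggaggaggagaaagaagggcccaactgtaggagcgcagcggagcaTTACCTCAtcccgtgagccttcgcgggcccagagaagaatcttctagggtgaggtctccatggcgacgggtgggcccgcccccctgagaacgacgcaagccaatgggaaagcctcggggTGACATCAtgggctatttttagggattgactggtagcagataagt
Atf3: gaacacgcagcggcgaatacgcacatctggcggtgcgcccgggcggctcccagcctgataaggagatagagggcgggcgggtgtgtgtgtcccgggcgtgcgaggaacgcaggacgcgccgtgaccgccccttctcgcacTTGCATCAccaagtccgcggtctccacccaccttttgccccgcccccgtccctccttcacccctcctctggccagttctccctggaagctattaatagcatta
Ddit3: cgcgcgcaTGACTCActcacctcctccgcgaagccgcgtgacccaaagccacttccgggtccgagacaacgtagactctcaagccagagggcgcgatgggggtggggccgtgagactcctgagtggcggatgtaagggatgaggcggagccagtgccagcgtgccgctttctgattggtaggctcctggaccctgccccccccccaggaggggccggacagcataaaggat
Mapk10: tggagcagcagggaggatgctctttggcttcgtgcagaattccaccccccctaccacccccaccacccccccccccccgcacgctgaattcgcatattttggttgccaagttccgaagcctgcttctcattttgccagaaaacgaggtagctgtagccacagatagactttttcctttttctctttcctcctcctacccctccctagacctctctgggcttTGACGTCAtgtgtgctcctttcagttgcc
The Jun promoter held both JUN-ATF sites, TTACCTCA at −164 and TGACATCA at −45 from the start. These 2 motifs were found in 0.728% and 2.93% of 32851 mouse promoters of the same length. The Atf3 promoter held the C/EBP-ATF site at −110 as its reverse complement TTGCATCA (0.791% of promoters), the Ddit3 promoter held an AP-1 site at −242 (4.46%) and the Mapk10 promoter a cyclic AMP response element at −29 (1.55%). The Map3k13 promoter, of a start site inside the annotated gene span, held a C/EBP-ATF site on the reverse strand at −69. This match lies beyond the first base of an annotated Map3k13 exon. The listed motifs were not found in these windows of Map3k12, Map2k4, Map2k7, Mapk8 and Mapk9, nor in the other Mapk10 promoter searched. A match is a run of letters and no evidence of binding.

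In WT retinas 2 days after PBS, every gene of the cascade was well detected. Per kilobase of exon, Map2k7 was highest at 37.6 ± 2.99 CPM per kb and Mapk9 followed at 24.3 ± 1.27 (SD, n = 31). Ddit3 (18.4 ± 1.61), Jun (15.8 ± 2.84) and Map2k4 (15 ± 0.725) were next, and Jun differed from each of its neighbours by less than its own SD. Map3k12 (9.65 ± 0.559), Mapk10 (9.38 ± 0.565), Mapk8 (9.24 ± 0.412), Atf3 (7.97 ± 2.72) and Map3k13 (7.01 ± 0.748) were lowest, and the first 3 of them differed by less than the SD of Map3k12. Among PBS retinas, Atf3 ran from 5.99 to 30.1 CPM, Jun from 36.1 to 68.3 CPM and Map3k12 from 76.9 to 95.8 CPM. Of these 3, Atf3 had the widest spread relative to its level and Map3k12 the narrowest.

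The first comparison asked how IL1A+TNF acted on the cascade after 2 days in WT eyes. Jun and Atf3 rose, Ddit3 rose by less, and 6 of the 7 kinase genes fell by small amounts. In total 9 of the 10 genes passed the test, 3 higher and 6 lower, in a comparison in which 50.4% of all tested genes did. The median change was −0.14 for the 10 genes and −0.02 for all genes. With such a large share of all genes called, the count says little about the cascade as a whole.

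Jun, the transcription factor that JNKs act on, ran from 36.1 to 68.3 CPM (median 48.7) in the 31 PBS retinas and from 48.6 to 120 CPM (median 85.8) in the 10 IL1A+TNF retinas. Of the IL1A+TNF retinas, 8 were above every PBS retina and the other two lay within the PBS range. The change was 0.68 (SE 0.091, FDR = 4.66e-09, limma), a fold of 1.61. Atf3, an injury-induced partner of JUN, ran from 5.99 to 30.1 CPM (median 17.8) after PBS and from 14.5 to 68.2 CPM (median 51.8) after IL1A+TNF. Again 8 of 10 treated retinas were above every PBS retina, and its change of 1.39 (SE 0.17, FDR = 8.11e-10, limma), a fold of 2.62, was the largest of the 10 genes. Ddit3, the proapoptotic CHOP gene, ran from 27.6 to 40.4 CPM (median 31) after PBS and from 28.1 to 40.8 CPM (median 35.9) after IL1A+TNF. The groups overlapped for Ddit3, with 3 of 10 treated retinas above the PBS range, and the change was 0.16 (SE 0.048, FDR = 0.0039, limma). With the mouse as a fixed block it was 0.0844 and did not pass (FDR = 0.16, limma). The plot of the transcription factors by retina shows the same IL1A+TNF retina at the bottom of its group for Jun and Atf3, female mouse 60780, which had 48.6 CPM of Jun, 14.5 CPM of Atf3 and, for Map3k12, the highest value of the group at 80.9 CPM.

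**Figure D1:**
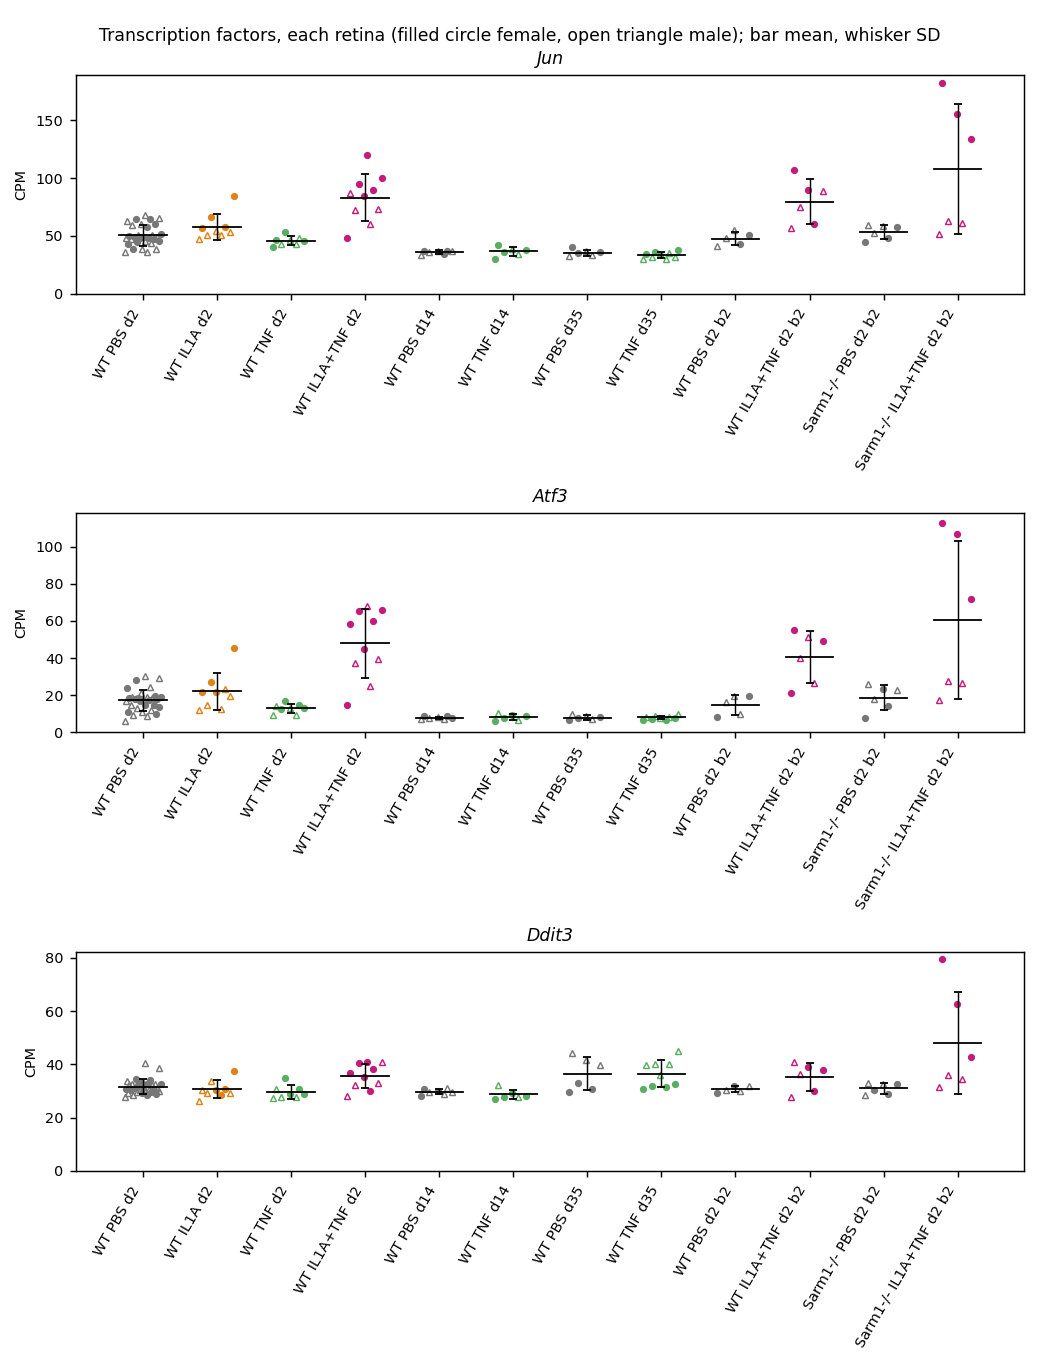
Levels of Jun, Atf3 and Ddit3 in CPM (vertical axes) in each of the 109 retinas, by group (horizontal axis). Filled circles are females, open triangles males, the bar is the group mean and the whisker its SD. After IL1A+TNF, 8 of 10 WT retinas of the first batch and 6 of 6 of the second were above every day 2 WT PBS retina of the same batch for Jun, and likewise for Atf3. In the Sarm1-/- IL1A+TNF group the 3 females (133 to 182 CPM of Jun) stood apart from the 3 males (51.8 to 62.9 CPM).

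At the top of the cascade, Map3k12 ran from 76.9 to 95.8 CPM (median 86.5) after PBS and from 66.4 to 80.9 CPM (median 69.1) after IL1A+TNF. Of the 10 treated retinas 9 were below every PBS retina, and the change was −0.28 (SE 0.032, FDR = 3.98e-11, limma). Map3k13, the paralog that can act beside DLK, ran from 44 to 73.3 CPM (median 62.2) and from 44.3 to 66.1 CPM (median 53.9), and fell by 0.17 on the log2 scale (SE 0.056, FDR = 0.00772, limma). All treated retinas were within the PBS range for Map3k13.

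The MAP kinase kinases differed from each other. Map2k7, whose product is specific for JNKs, had 144 ± 11.4 CPM after PBS and 130 ± 5.86 CPM after IL1A+TNF (SD, n = 31 and 10), a change of −0.14 (SE 0.039, FDR = 0.00199, limma). All 10 treated retinas were below the PBS median, and 1 was below the PBS range. Map2k4, whose product acts on JNKs and p38 kinases, had 69.9 ± 3.38 and 71.6 ± 1.5 CPM, a difference of 0.04 that did not pass (FDR = 0.104, limma).

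The 3 JNK genes all fell. Mapk9 had 165 ± 8.63 CPM after PBS and 142 ± 8.02 after IL1A+TNF, with 6 of 10 treated retinas below every PBS retina and a change of −0.21 (FDR = 2.06e-08, limma). Mapk10, the neuronal JNK gene, had 104 ± 6.29 and 89.4 ± 5.03 CPM, with 5 of 10 below the PBS range and a change of −0.22 (FDR = 5.94e-07, limma). Mapk8 had 106 ± 4.71 and 95.4 ± 3.70 CPM, with 6 of 10 below the PBS range and a change of −0.15 (FDR = 1.53e-06, limma). All 10 IL1A+TNF retinas were below the PBS median for each of the 3 JNK genes.

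**Figure D2:**
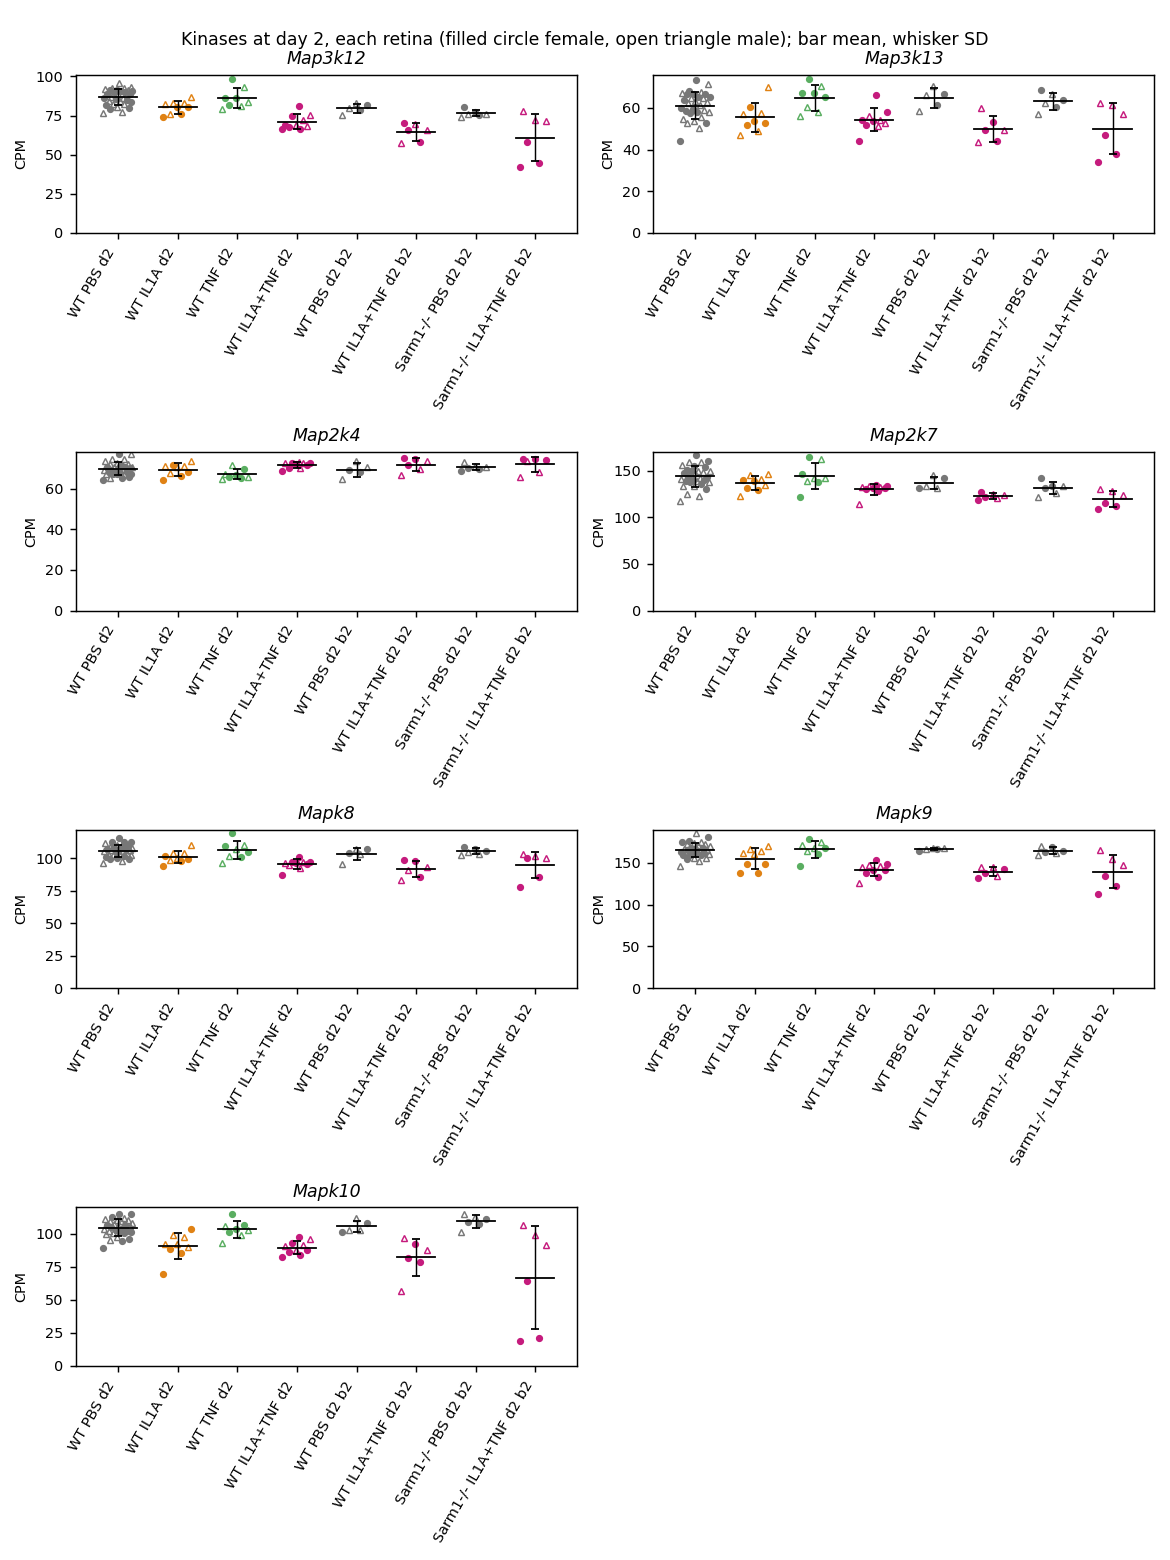
Levels of the 7 kinase genes in CPM (vertical axes) in each day 2 retina, by group (horizontal axis). Filled circles are females, open triangles males, the bar is the group mean and the whisker its SD. Map3k12 after IL1A+TNF was 66.4 to 80.9 CPM in the first batch against 76.9 to 95.8 CPM after PBS, and 2 Sarm1-/- females had the lowest Mapk10 of all, 20.7 and 18.8 CPM.

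A whole retina holds many cell types, so fewer cells of a type and less RNA per cell cannot be told apart. The summed level of 10 RGC markers, none at 0, was 655 to 924 CPM after PBS and 595 to 752 CPM after IL1A+TNF, and 9 of the 10 markers fell (median −0.26). Photoreceptor markers summed to 31785 to 49786 CPM and 19618 to 37066 CPM, with 5 of 6 lower (median −0.85), and bipolar, amacrine and horizontal markers to 887 to 1238 and 666 to 1091 CPM, with 5 of 7 lower (median −0.31). Müller glia and astrocyte markers summed to 1862 to 3548 CPM (median 2883) and 1144 to 2817 CPM (median 2046), with 3 of 6 higher and 2 lower. Neutrophil and monocyte markers were 3.04 to 136 CPM after PBS and 149 to 815 CPM after IL1A+TNF (8 of 8 higher), and microglia and macrophage markers 52.9 to 105 and 127 to 232 CPM (6 of 8 higher, 1 lower). Of 8 lens, pigment epithelium and blood markers, 3 fell and none rose (median 0.14). The part of these cell type shifts in the changes of the cascade genes was not tested.

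The same eyes can be set against their fellow eyes. In the 8 mice of the first batch with 1 IL1A+TNF eye and 1 PBS eye, Map2k7, Mapk8, Mapk9 and Mapk10 were lower in the treated eye in 8 of 8. Here and for the fellow-eye pairs of the other groups, the share of all genes with the same direction in every pair was not counted. Jun and Atf3 were higher in 7 of 8, with median log2 ratios of 0.58 and 1.08, and Map3k12 was lower in 7 of 8, with a median of −0.38. Ddit3 was higher in 5 of 8, with a median of 0.02. Mouse 60780 was the exception for Jun (−0.42), Atf3 (−0.36) and Map3k12 (0.02).

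Around the members, counts are given for the other genes of the pathway, list by list. The lists were chosen with earlier results of these data known, so their counts describe the lists and test nothing. Of all 19548 genes tested after IL1A+TNF on day 2, 4874 rose and 4978 fell. Of 24 other kinases, scaffolds and regulators of the cascade, 5 rose and 7 fell after IL1A+TNF (median −0.03). Taok3, a kinase upstream of stress-activated MAP kinases, fell from 159 ± 20.1 to 98.2 ± 13 CPM (−0.68, FDR = 4.59e-14, limma), and Map4k4, a kinase that can act above DLK, rose from 108 ± 8.69 to 149 ± 19.2 CPM (0.45, FDR = 5.27e-12, limma). Map3k11, a further mixed-lineage kinase, rose by 0.33 and Map3k1, another JNK pathway kinase, by 0.40. Of 10 dual-specificity phosphatases, which switch MAP kinases off, 4 rose and 3 fell, with Dusp6 at 0.59 and Dusp4 at −0.64, both of them ERK phosphatases at least in part. These genes, named for the smallest FDR in their lists, are not a sample of the lists.

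Among AP-1 and DLK-linked transcription factors, 10 of 15 tested rose and none fell, with a median of 0.46. Junb rose from 35.3 ± 14.3 to 81.5 ± 35.9 CPM (1.14, FDR = 2.5e-07, limma), Fosl2 by 0.91, Mafk by 0.46, and Sox11, a DLK-dependent factor of injured RGCs, from 1.06 ± 0.32 to 2.43 ± 0.69 CPM (1.14, FDR = 1.2e-10, limma). Of the 9 genes of the PERK branch and of CHOP partners, 8 rose and none fell (median 0.25). They included Eif2ak3, the gene of PERK itself (0.29, FDR = 8.4e-09, limma), and the C/EBP genes Cebpa (2.03), Cebpb (1.11) and Cebpg (0.19), of which Cebpa is also a gene of myeloid cells. Of 23 genes known as targets of JUN, ATF3 or CHOP in stressed neurons, 14 rose and 2 fell (median 0.19). Pmaip1, a proapoptotic BCL2 family gene, rose from 1.22 ± 0.43 to 5.68 ± 1.43 CPM, Ecel1, an endopeptidase induced by nerve injury, from 0.754 ± 0.30 to 2.81 ± 0.77 CPM, and Klf6, a growth-associated factor, from 41.2 ± 5.45 to 62.1 ± 10.7 CPM. Ero1a, an oxidoreductase gene that CHOP can induce, fell from 70.3 ± 7.87 to 48.6 ± 3.28 CPM.

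The next comparisons asked what each cytokine did alone, and they used the same 31 PBS retinas. After IL1A, 3 of the 10 genes passed the test, all lower, against 21.4% of all genes. Mapk10 ran from 69.5 to 104 CPM (median 91.9) after IL1A, with 3 of 9 retinas below the PBS range, and changed by −0.20 (SE 0.037, FDR = 1.85e-05, limma). Map3k12 ran from 74.3 to 86.9 CPM (median 80.3), with 3 of 9 below the PBS range (−0.10, FDR = 0.0177, limma), and Mapk9 from 137 to 170 CPM (median 160; −0.09, FDR = 0.0305, limma). The calls of Map3k12 and Mapk9 were both lost when the IL1A retina of mouse 60216 (FDR = 0.0518 and 0.0658) or of mouse 60637 (FDR = 0.0659 and 0.122) was left out, and that of Mapk9 also without mouse 60217 (FDR = 0.132) or mouse 60586 (FDR = 0.0622). These 4 mice are the 4 females of the IL1A group. With the mouse as a fixed block Mapk10 still passed, while Map3k12 (FDR = 0.257) and Mapk9 (FDR = 0.139, limma) did not. Without mouse 60588, Map3k13 (FDR = 0.0174) and Mapk8 (FDR = 0.0418) passed as well.

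Jun ran from 46.9 to 84.2 CPM (median 53.9) after IL1A alone, with 1 of 9 retinas above the PBS range, and its difference of 0.20 did not pass (FDR = 0.129, limma). Atf3 ran from 12.1 to 45.6 CPM (median 21.6), with 1 of 9 above the PBS range and a difference of 0.35 (FDR = 0.23, limma). Ddit3 differed by −0.04. Of the surrounding lists after IL1A, 5 of 15 AP-1 and DLK-linked factors rose and none fell (median 0.23), as did 3 of 9 PERK branch genes and CHOP partners (median 0.04), and 7 of 23 target genes rose and 3 fell (median 0.10). In the 7 fellow-eye pairs of IL1A, Map3k12 was lower in 7 of 7 and Mapk10 in 6 of 7, while Jun was higher in 4 of 7.

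After TNF alone, none of the 10 genes passed the limma test on day 2, when 0.655% of all genes did. The lowest FDR was 0.512, for Map2k4 (−0.06), which was the 1 gene of the 10 with an unadjusted p under 0.05, and neither edgeR nor DESeq2 called any. Jun ran from 40.6 to 53.2 CPM (median 45.8) and Atf3 from 9.04 to 16.9 CPM (median 13), and all 8 retinas of each lay within the PBS range. Of the lists around the cascade, 1 PERK branch gene or CHOP partner of 9 rose, and none of the other kinases, phosphatases, AP-1 factors and target genes passed. In the 8 fellow-eye pairs Jun was higher in 4 and lower in 4.

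The 2 cytokines were then compared within the same fit. Against IL1A alone, IL1A+TNF changed 5 of the 10 genes, where 10.1% of all genes passed. Jun (0.48, SE 0.12, FDR = 0.00433, limma), Atf3 (1.04, SE 0.23, FDR = 0.00157, limma) and Ddit3 (0.20, FDR = 0.0288, limma) were higher, and Map3k12 (−0.18, FDR = 0.002, limma) and Mapk9 (−0.12, FDR = 0.0277, limma) lower. The calls of Ddit3 and Mapk9 were lost in 7 and 6 of the 19 fits that left out 1 retina. With the mouse as a fixed block, which kept 46 of the 58 retinas, none of the 5 passed (FDR = 0.364 for Jun and 0.256 for Atf3, limma). Against TNF alone, all 10 genes passed, with 39% of all genes: Jun (0.81), Atf3 (1.73), Ddit3 (0.25) and Map2k4 (0.10) were higher and the other 6 lower. With the mouse as a fixed block 5 of them passed, namely Jun, Atf3, Map3k12, Mapk8 and Mapk9, and FDRs of the rest were 0.0651 to 0.467 (limma).

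The interaction term tested whether IL1A+TNF differed from the sum of the single cytokines on the log2 scale, and 3.6% of all genes passed it. Jun (0.60, SE 0.16, FDR = 0.0202, limma), Atf3 (1.38, SE 0.33, FDR = 0.012, limma) and Ddit3 (0.29, SE 0.083, FDR = 0.0362, limma) passed, all in the direction of more than the sum. Map3k12 did not pass (−0.17, FDR = 0.0554, limma), although it did in 4 of the 19 fits without 1 retina, the lowest FDR being 0.0138 without mouse 60780. The call of Ddit3 was lost in 8 of these 19 fits. With the mouse as a fixed block the terms were 0.45 for Jun, 0.99 for Atf3 and 0.18 for Ddit3, and none passed (FDR from 0.449 to 0.501, limma). These comparisons share retinas, and they are not independent of each other.

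**Figure D3:**
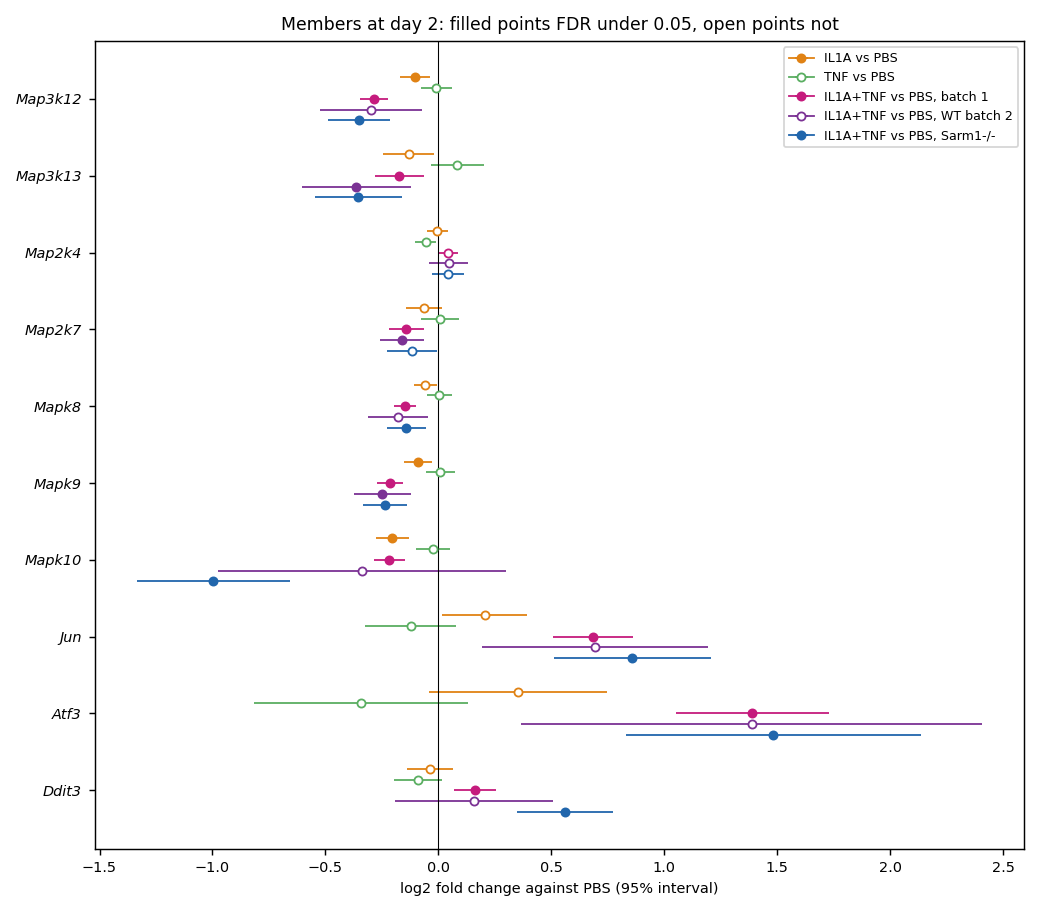
Log2 fold changes of the 10 genes (horizontal axis) with 95% intervals in 5 comparisons. Filled symbols passed an FDR under 0.05. After IL1A+TNF Jun, Atf3 and Ddit3 lay above 0 and the kinase genes other than Map2k4 below it. Atf3 was furthest, at 1.39 in WT eyes of the first batch and 1.48 in Sarm1-/- eyes.

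The later days asked whether TNF had a delayed effect. At day 14, no gene of the cascade and no other gene passed the limma test between 6 TNF and 7 PBS retinas (0% of all genes, 838 genes with an unadjusted p under 0.05, none of them in the cascade), and the lowest FDR of the 10 was 0.888. Jun had 36.2 ± 1.38 CPM after PBS and 36.6 ± 4.18 CPM after TNF, and Atf3 7.88 ± 0.617 and 8.05 ± 1.56 CPM. In the 4 mice with both eyes at day 14, Atf3 (median log2 ratio −0.14), Mapk10 (−0.12) and Ddit3 (−0.05) were lower in the TNF eye in 4 of 4, and Mapk8 (0.03) and Mapk9 (0.04) higher in 4 of 4. A shared direction in only 4 pairs arises easily by chance, and the share of all genes that had one was not counted. In the 6 pairs of day 35, no gene of the cascade had the same direction in more than 4. At day 35 again 0% of all genes passed (871 with an unadjusted p under 0.05) and no gene of the cascade did, the lowest FDR being 0.889 for Jun (−0.09). Jun had 35.7 ± 2.60 CPM in 6 PBS and 33.4 ± 2.74 CPM in 9 TNF retinas, and Map3k12 had 88.6 and 89.2 CPM. For both days edgeR and DESeq2 called none of the 10 genes.

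The PBS eyes themselves differed between days, in 6 of the 10 genes against 36.2% of all genes. Jun ran from 36.1 to 68.3 CPM at day 2 and from 33.0 to 40.0 CPM at day 35, with a difference of −0.46 at day 14 (SE 0.096, FDR = 0.000488, limma) and of −0.49 at day 35 (SE 0.1, FDR = 0.000192, limma). For Atf3 the differences were −1.04 (FDR = 0.0012, limma) and −1.05 (FDR = 0.000789, limma), and its level was 7.92 ± 1.16 CPM at day 35. Some day 2 PBS retinas were as low as the later ones for both genes. Mapk10 was higher at both later days (0.13, FDR = 0.012, and 0.21, FDR = 3.3e-05, limma), and Map3k13 (0.35), Mapk8 (0.14) and Ddit3 (0.19) were higher at day 35. For Ddit3 the rise was seen in males only. Its mean in PBS females was 31.2 CPM at day 2 and 31.1 CPM at day 35, and in PBS males 31.8 and 41.9 CPM. Only 3 retinas of each sex were of day 35, and the difference by sex was not tested. Across the same PBS groups, neutrophil and monocyte markers summed to 3.04 to 136 CPM at day 2, 1.38 to 4.19 CPM at day 14 and 0.708 to 1.48 CPM at day 35, and microglia markers to 52.9 to 105, 31.3 to 44 and 24.1 to 31.3 CPM. Their part in the differences was not tested, and time after injection cannot be told apart from any other difference between these cohorts.

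The second batch repeated IL1A+TNF against PBS in WT eyes and set Sarm1-/- eyes beside them. Jun was 42.8, 50.8, 41.2, 48.0 and 54.9 CPM in the 5 WT PBS retinas and 60.1, 90.1, 107, 56.9, 75.0 and 88.7 CPM in the 6 WT IL1A+TNF retinas. Atf3 was 8.48, 19.3, 10.1, 16.1 and 19.6 CPM after PBS and 21, 49.3, 55.0, 26.6, 39.8 and 51.1 CPM after IL1A+TNF. Each treated WT retina was above each WT PBS retina for both genes, but how many of all genes separated in this way was not counted. The changes were 0.69 for Jun (SE 0.26) and 1.39 for Atf3 (SE 0.52), and neither passed in the fit of all 23 retinas of this batch (FDR = 0.0585 and 0.0631, limma). When the 11 WT retinas were fitted alone, both passed (FDR = 0.00428 and 0.00476, limma). Both also passed in the fit of 23 without the IL1A+TNF retina of mouse 61927 (FDR = 0.0229 and 0.0148), and Jun without the PBS retina of mouse 62224 (FDR = 0.0457).

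In the fit of all 23 retinas 3 of the 10 genes passed, where 20.9% of all genes did. With the WT retinas alone 8 passed, where 7135 of 18920 tested genes did, so the number of all genes called rose as well. With the mouse as a fixed block 0 passed (lowest FDR of the 3 genes called in the fit of 23, 0.0556 for Mapk9), where 2392 of 19618 tested genes did. Mapk9 had 166 ± 1.70 CPM after PBS and 139 ± 5.55 after IL1A+TNF (−0.25, FDR = 0.00878, limma), Map2k7 137 ± 6.68 and 123 ± 3.23 CPM (−0.16, FDR = 0.0254, limma) and Map3k13 64.7 ± 4.65 and 49.9 ± 6.13 CPM (−0.36, FDR = 0.0401, limma). For Map2k7, Mapk9, Map3k12 and Mapk10, each of the 6 treated retinas was below each of the 5 PBS retinas. Since the share of all genes that separated fully was not counted, this is no result particular to these genes. Map3k12 had 79.7 ± 2.99 and 64.5 ± 5.48 CPM (−0.30, FDR = 0.0719, limma). The count of 3 fell to 1 without PBS retinas of mouse 61722 or 61927 or IL1A+TNF retinas of mouse 61719 or 61721, and was 7 without the IL1A+TNF retina of mouse 61927. In a fit of both batches, the effect of IL1A+TNF on the 10 genes was not seen to differ between batches (0% of all genes passed, lowest FDR among the 10 of 0.832, none by edgeR or DESeq2, 1186 of all genes at an unadjusted p under 0.05).

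Sarm1 itself was checked first in the Sarm1-/- retinas. It had 114 ± 9.06 CPM in WT PBS retinas and 43.4 ± 5.80 CPM in Sarm1-/- PBS retinas of the same batch, a change of −1.41 (FDR = 2.3e-24, limma) with reads still present in every Sarm1-/- retina. The comparisons with Sarm1-/- eyes were fitted over all 81 retinas of day 2 with batch as a term, so the WT arm came from both batches. Between PBS eyes of the 2 genotypes, none of the 10 genes passed (0.0397% of all genes did), and the lowest FDR was 0.99. The 95% intervals of the difference were −0.18 to 0.47 for Jun and −0.38 to 0.91 for Atf3, so moderate differences could not be told from none.

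Within Sarm1-/- eyes, 8 of the 10 genes passed after IL1A+TNF, 3 higher and 5 lower, against 43.5% of all genes. Jun had 53.6 ± 6.24 CPM after PBS and 108 ± 56.2 CPM after IL1A+TNF, Atf3 18.6 ± 6.82 and 60.4 ± 42.7 CPM, and Mapk10 109 ± 4.72 and 66.7 ± 39.2 CPM (SD, n = 6 each). After IL1A+TNF the group held 3 retinas with high and 3 with low Jun, and they split by sex. The changes were 0.86 for Jun (FDR = 6.13e-05), 1.48 for Atf3 (FDR = 0.000185), 0.56 for Ddit3 (FDR = 2.22e-05), −0.996 for Mapk10 (FDR = 4.46e-06) and −0.35 for both Map3k12 (FDR = 3.38e-05) and Map3k13 (FDR = 0.00212, limma). Without the 3 female IL1A+TNF retinas, none of the 10 passed in this fit (Jun 0.18, FDR = 0.747, limma), and without those of mice 61924 and 61926, both female, 2 did. Within the second batch alone 7 passed, and the number of all genes that did is not given here.

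Among the Sarm1-/- retinas after IL1A+TNF, Jun was 133, 156 and 182 CPM in the females and 51.8, 62.9 and 61.3 CPM in the males. Atf3 was 71.7, 107 and 113 CPM in females and 17.3, 27.5 and 26.6 CPM in males, and Ddit3 was 42.7, 62.7 and 79.6 CPM against 31.6, 36.0 and 34.5 CPM. All females were above all males for these 3 genes. Mapk10 was 63.9, 20.7 and 18.8 CPM in females and 106, 99.2 and 91.5 CPM in males, and Map3k12 57.8, 44.5 and 42.1 CPM against 77.8, 71.9 and 71.3 CPM. Map3k13 was 47.2, 37.6 and 33.8 CPM in females and 62.5, 61.4 and 57.2 CPM in males. All females were below all males for these kinase genes, while Map2k4 had 74.3 to 74.8 CPM in females and 66.0 to 73.7 CPM in males. Full separation of 3 retinas from 3 arises easily by chance in a single gene, and its share among all genes was not counted.

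Models with sex were added after these values had been seen. The treatment effect differed between Sarm1-/- females and males in 8 of the 10 genes, where 29.4% of all genes passed. The difference was 1.60 for Jun (SE 0.26, FDR = 0.00104), 2.68 for Atf3 (SE 0.58, FDR = 0.00331), 0.83 for Ddit3 (FDR = 0.016), −1.75 for Mapk10 (SE 0.37, FDR = 0.00312) and −0.67 for Map3k12 (SE 0.13, FDR = 0.00223, limma). In females 9 of the 10 genes passed (51.4% of all genes), with Jun at 1.64 and Atf3 at 2.76. In males none did (0.0146% of all genes, none of the 10 at an unadjusted p under 0.05 and none by edgeR or DESeq2), with Jun at 0.04 (95% interval −0.32 to 0.40) and Atf3 at 0.09 (−0.70 to 0.88). Of 16 AP-1 and DLK-linked factors, 10 rose and 2 fell in females (median 1.10) and none passed in males (median 0.01). Of 23 target genes, 14 rose and 4 fell in females (median 1.08), again with none in males (median 0.05), and 8 of 9 PERK branch genes and CHOP partners rose in females (median 0.69).

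In WT eyes the effect of IL1A+TNF on the 10 genes was not seen to differ by sex. No gene passed that test on day 2 of the first batch or in the second batch (0% of all genes each, 1308 and 715 genes with an unadjusted p under 0.05), nor for IL1A (1538 genes) or TNF (600 genes). By edgeR and DESeq2 none of the 10 genes passed these tests either. The females and males after IL1A did not overlap for Jun (56.5 to 84.2 CPM in 4 females, 46.9 to 53.9 CPM in 5 males) or Mapk9 (137 to 149 and 160 to 170 CPM). How many of all genes separated the sexes in the same way was not counted, so this cannot be called a trait of the cascade. The difference in the IL1A effect between sexes was −0.20 for Mapk9, with an unadjusted p of 0.000867 that did not pass after adjustment (FDR = 0.473, limma), and 0.33 for Jun (FDR = 0.706, limma). The difference between genotypes in the effect of sex passed for 3 of the 10 genes in limma, where 8.75% of all genes passed, namely Jun (1.39, FDR = 0.0363), Map3k12 (−0.65, FDR = 0.0453) and Mapk10 (−1.86, FDR = 0.0414). In edgeR none passed, and in limma the count went from 0 to 8 with the Sarm1-/- retina that was left out.

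Markers of several cell types moved with sex in the same group. RGC markers, none at 0, summed to 137 to 338 CPM in the 3 Sarm1-/- females after IL1A+TNF and to 647 to 763 CPM in the 3 males, against 735 to 827 CPM in Sarm1-/- PBS retinas. Photoreceptor markers summed to 18714 to 24166 and 29255 to 40053 CPM, and Müller glia and astrocyte markers to 1112 to 1317 and 1811 to 2372 CPM. Neutrophil and monocyte markers summed to 349 to 692 and 126 to 265 CPM, and lens, pigment epithelium and blood markers to 70.9 to 237 and 27.7 to 66.8 CPM. Microglia and macrophage markers summed to 112 to 135 CPM in females and 138 to 167 CPM in males. Their part in the difference by sex was not tested, and with 3 retinas of each sex, sex cannot be told apart from anything else that these mice shared.

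**Figure D4:**
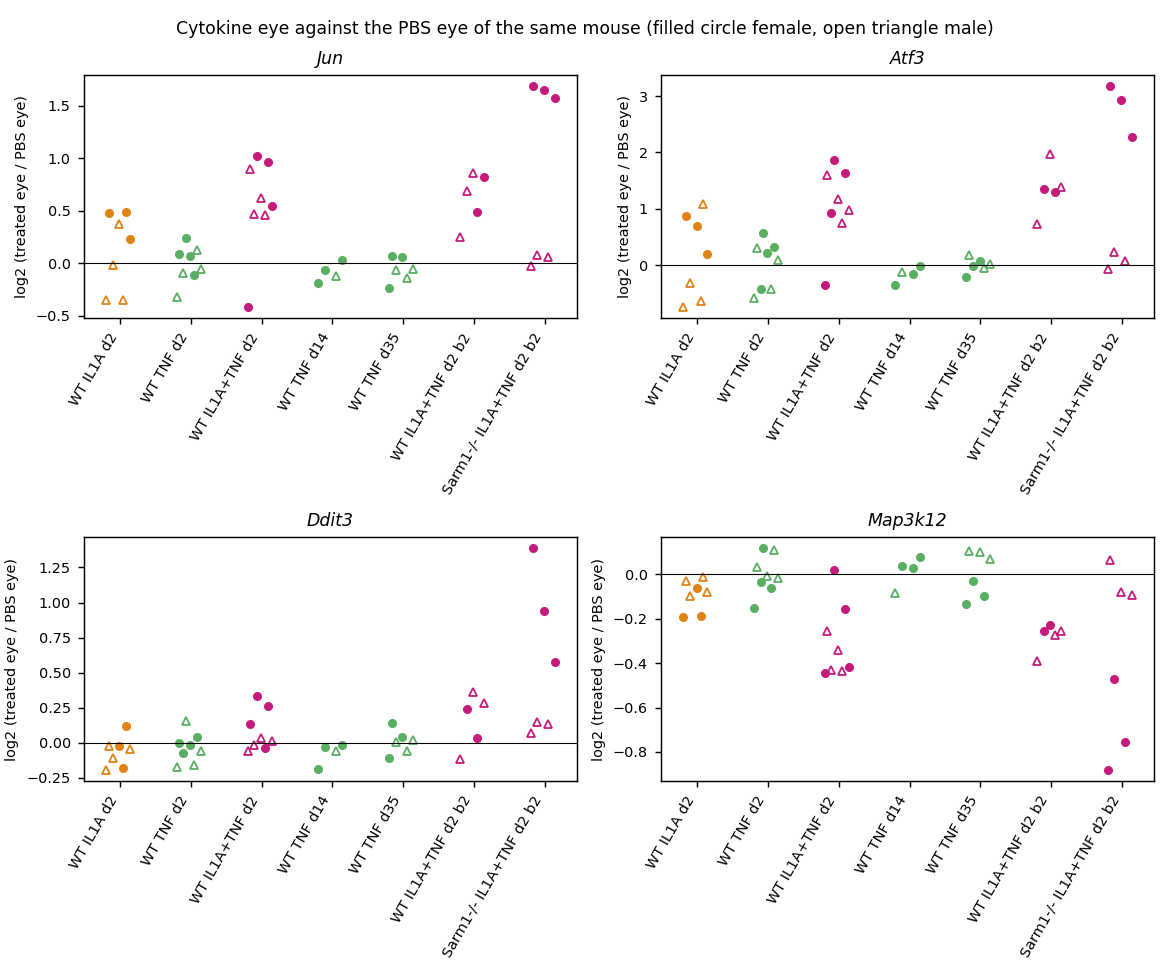
Log2 ratio of the treated eye to the PBS eye of the same mouse (vertical axis) for Jun, Atf3, Ddit3 and Map3k12 in 7 groups (horizontal axis), 1 point per mouse. In Sarm1-/- mice after IL1A+TNF the Jun ratio was 1.58 to 1.69 in the 3 females and −0.02 to 0.08 in the 3 males.

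Against WT retinas after IL1A+TNF, Sarm1-/- retinas were lower in Mapk10 (−0.62, SE 0.16, FDR = 0.00588, limma) and higher in Ddit3 (0.39, SE 0.098, FDR = 0.00547, limma), where 14.8% of all genes passed. The genotype by treatment term passed for the same 2 genes, Mapk10 (−0.75, SE 0.2, FDR = 0.0148, limma) and Ddit3 (0.40, SE 0.12, FDR = 0.0335, limma), with 8.75% of all genes. Within the second batch alone the values were similar for Mapk10 (−0.54 and −0.64) and Ddit3 (0.40 and 0.41) but none passed (FDR from 0.232 to 0.814, limma). By edgeR the genotype by treatment term passed for neither gene (FDR = 0.148 for Mapk10 and 0.0534 for Ddit3). For Jun this term was 0.17 (95% interval −0.23 to 0.57) and for Atf3 0.08 (−0.66 to 0.83). All 4 calls were lost when the female Sarm1-/- IL1A+TNF retina of mouse 61924 (FDR from 0.0983 to 0.256) or of mouse 61926 (FDR from 0.121 to 0.249) was left out. Without the 3 females the terms of Mapk10 and Ddit3 turned to 0.11 and −0.01, and that of Map3k12 turned to 0.24 and passed (FDR = 0.049, limma). Against WT after IL1A+TNF, the 3 males were then higher in Map3k12 (0.20, FDR = 0.0364, limma) and Mapk8 (0.16, FDR = 0.0323, limma), which were the 2 genes called.

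In fellow-eye pairs of the second batch, Jun and Atf3 were higher in the treated eye in 5 of 5 WT mice, with medians of 0.69 and 1.35, and Map3k12 was lower in 5 of 5. In the 6 Sarm1-/- mice, Jun and Atf3 were higher in 5 and Ddit3 in 6. The Atf3 ratio was 2.28 to 3.19 in the 3 females and −0.07 to 0.23 in the 3 males.

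Over the 58 WT retinas of day 2 in the first batch, Jun and Atf3 levels ran together and against that of Map3k12. These correlations of log2 CPM describe retinas that share treatments, a batch and cell composition. Jun and Atf3 had r = 0.922 over all 58 retinas and 0.787 within the 31 PBS retinas. Map3k12 and Jun had r = −0.808 overall and −0.531 within PBS, and Map3k12 and Atf3 −0.700 and −0.204. Map3k12 and Ddit3 had r = −0.287 overall and 0.264 within PBS. Atf3 and Ddit3 had r = 0.713 and 0.546, and Jun and Ddit3 0.591 and 0.225. Among 15122 genes, those with the pattern most like Jun were Socs3 (r = 0.93), Atf3 and Klf6 (r = 0.921), and those most like Atf3 were Arl6 (r = 0.957), R3hcc1l (r = 0.948) and Naa35 (r = 0.947). Ddit3 was most like Mars (r = 0.843), whose exons overlap it on the opposite strand, followed by Atf4 (r = 0.822) and Creld2 (r = 0.816), and Map3k12 most like Bin1 (r = 0.919), Gpsm1 (r = 0.918) and Ankrd27 (r = 0.910).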

How the data were processed

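Polyadenylated RNA of whole retinas had been sequenced with paired ends. The authors aligned the reads to mm10 with STAR 2.7.9a and deposited raw counts per gene from featureCounts (Subread 2.0.1). The annotation release and strand setting are not given in the sources used here. Groups, mouse, eye and sex came from the sample labels. Here the counts were filtered (minimum count 10, minimum total 15), scaled by TMM and fitted with voom and limma 3.58.1 in R 4.3.3. The models had sex as covariate, batch where both batches entered, and the mouse as a random block through duplicateCorrelation. The day comparison of PBS eyes had no block (44 retinas of 43 mice). The FDR was adjusted by the Benjamini-Hochberg method over all genes tested. CPM used TMM-scaled library sizes. Correlations used log2 CPM with a prior count of 2, and levels per kb used the summed exon length.

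The mouse pairs the 2 eyes of 45 mice. After removal of group means, the correlation of both eyes had a median of 0.0827 (−0.265 to 0.339), and it was over 0.1 in 19 mice. Retinas were separate eyes, so the 2 eyes of 1 mouse are not independent animals. No pair of retinas in a group had counts as alike as sampling noise would give (lowest chi-square per gene 4.55).

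Alternatives were edgeR 4.0.16 (quasi-likelihood test) and DESeq2 1.42.0, both without a block for the mouse. The limma fits were also run with no filter, a filter at 1 CPM, RLE size factors, no sex term, no block, and the mouse as a fixed block. Treated retinas of day 2 (in the second batch also PBS retinas) were also left out 1 at a time. The fits were tested on simulated data with known changes. The 10 genes and the gene lists were chosen with earlier results of these data known, and the tests by sex, the leave-outs of Sarm1-/- females and the fit of 11 WT retinas after the values had been seen. From each list, at most 4 genes with the smallest FDR after IL1A+TNF on day 2 and at least 1 CPM were named, and for 4 of the members the 3 genes with the highest correlation. Samples of Jun deficient mice were not analysed here.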

Additional observations from a re-analysis of the deposited data

Results flagged for a closer look

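In groups of 4 to 10 retinas, a retina was marked when its gap to the nearest other retina was a large part of the range of the group (Dixon's test at 95%). Of 110 gene and group combinations, 6 were marked, and chance alone marks about 1 in 20. Map2k4 was high in the day 14 TNF retina of mouse 59709 (74.0 CPM, next 68.6) and in the day 14 PBS retina of mouse 59830 (74.7 CPM, next 69.5). Mapk9 was low in the day 14 PBS retina of mouse 59708 (155 CPM, next 171). Map2k7 was low in the day 2 IL1A+TNF retina of mouse 60214 (115 CPM, next 128). Atf3 was high in the day 2 IL1A retina of mouse 60637 (45.6 CPM, next 27.1), and Ddit3 in the day 2 TNF retina of mouse 60584 (35.0 CPM, next 30.8).

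The effect of IL1A+TNF differed between genotypes for Mapk10 by −0.75 (Sarm1-/- minus WT, FDR = 0.0148, limma) and for Ddit3 by 0.40 (FDR = 0.0335, limma). Both differences rested on the female Sarm1-/- retinas, as the values without them show.

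In Sarm1-/- eyes the effect of IL1A+TNF differed between sexes (female minus male) in 8 genes of the cascade. The differences were 1.60 for Jun, 2.68 for Atf3, 0.83 for Ddit3, −1.75 for Mapk10, −0.67 for Map3k12, −0.68 for Map3k13, −0.36 for Mapk9 and −0.28 for Map2k7, with FDRs from 0.00104 to 0.016 (limma). The excess of this difference over that in WT eyes of the second batch was 1.39 for Jun, −0.65 for Map3k12 and −1.86 for Mapk10, with FDRs from 0.0363 to 0.0453 (limma).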

How the results depend on the processing

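The count of members called after IL1A+TNF on day 2 was 9 in each fit that left out 1 treated retina. It stayed 0 for TNF on day 2 in each such fit. For Sarm1-/- against WT after PBS and for the batch term, it stayed 0 with 1 WT PBS retina of the second batch left out. No retina was left out for TNF at days 14 and 35, where the count was 0 in every other fit. With 1 retina left out, the count ranged from 1 to 5 for IL1A, from 3 to 6 for IL1A+TNF against IL1A, from 2 to 4 for the IL1A by TNF term, from 1 to 7 for WT in the second batch, from 7 to 9 for Sarm1-/- eyes, from 0 to 4 for Sarm1-/- against WT after IL1A+TNF, from 0 to 2 for the genotype by treatment term and from 0 to 8 for the genotype by sex by treatment term (0 without the Sarm1-/- IL1A+TNF retina of mouse 61561, 61564, 61924 or 61926, 1 without that of 62221, 8 without that of 61765, and 0 or 1 without the PBS retina of 61561, 61564, 61765, 61924 or 61926).

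Both eyes of a mouse were paired as a block. With the replicate block as a fixed factor, which keeps only mice with both eyes, the count fell from 3 to 1 for IL1A, from 5 to 0 for IL1A+TNF against IL1A, from 10 to 5 for IL1A+TNF against TNF, from 3 to 0 for the IL1A by TNF term, from 3 to 0 for WT in the second batch and from 2 to 0 for the genotype by treatment term. After IL1A+TNF on day 2, Ddit3 was then at 0.08 (FDR = 0.16, limma). Without any block, Map3k12 lost its call in the genotype by sex by treatment term (FDR = 0.0562), and no other call changed. For the day comparison of PBS eyes, a fit with the mouse as a random block was not estimable. Its main fit had no block, since nearly all mice gave 1 PBS eye.

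By DESeq2 the count was 5 for the IL1A by TNF term, 7 for WT in the second batch, 1 for Sarm1-/- against WT after IL1A+TNF and 1 for the genotype by treatment term. By edgeR it was 5, 1 and 0 for the last 3 of these and 0 for the genotype by sex by treatment term. Without a filter it was 1 for the genotype by treatment term and 1 for the genotype by sex by treatment term. Within the second batch alone it was 0 both for Sarm1-/- against WT after IL1A+TNF and for the genotype by treatment term. With 11 WT retinas alone it was 8, where 7135 of 18920 tested genes passed.

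Without the 3 female Sarm1-/- IL1A+TNF retinas the count was 0 for the Sarm1-/- effect and 1 for the genotype by treatment term. Against WT, Map3k12 turned to 0.20, Mapk10 to 0.23 and Ddit3 to −0.00998, and in the genotype by treatment term to 0.24, 0.11 and −0.0112. Without the retinas of mice 61924 and 61926 the counts were 2 for the Sarm1-/- effect, 0 against WT and 0 for the genotype by treatment term, and Mapk10 against WT turned to 0.0722. The cause of these shifts was not tested.

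The number of all genes called moved as well. For the genotype by treatment term it was 1763, and 181 by edgeR, 443 by DESeq2, 9 with the fixed block and 0 within the second batch. For Sarm1-/- against WT after IL1A+TNF it was 2988, and 1195 by edgeR, 1600 by DESeq2 and 129 within the second batch. For the Sarm1-/- effect it was 8768, and 599 without the 3 females. With the fixed block it went from 4193 to 1989 for IL1A, from 1968 to 1 for IL1A+TNF against IL1A, from 7618 to 2804 against TNF, from 703 to 0 for the IL1A by TNF term and from 4110 to 2392 for WT in the second batch. For TNF on day 2 it was 128, and 242 by edgeR and 268 by DESeq2.

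Counting error was small, since the lowest count was 204. The number of retinas, from 5 in a group, and the spread between them limited the tests.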
